A study of Mus musculus with 20 samples.

Results

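Thg1l and Pttg1 are protein-coding genes of mouse chromosome 11 that lie on the same side of Irgm1, the gene inactivated in this study. They were chosen by name, for levels that differed between genotypes in earlier results of these data without following the interferon-induced genes. They are 2 of the 24124 named genes on the array and are read by 3 of its 39429 probes, 1 probe for Thg1l and 2 for Pttg1. RNA came from C57BL/6 mice kept free of specific pathogens, and every mouse was either labelled Irgm1-/- or wild type (WT). Whole salivary gland was taken from 4 Irgm1-/- mice, all female and 9 weeks old, and from 4 wild type females, 2 of 6 weeks and 2 of 7 weeks. Small intestine (whole duodenum) was taken from 3 mice labelled Irgm1-/- (a male of 6 weeks, a male of 8 weeks and a female of 6 weeks) and from 3 wild type females of 6, 8 and 6 weeks. Macrophages isolated from the colon came from the same 6 mice, by the animal numbers that the deposited files carry, and age, sex and genotype labels matched for 6 of 6. Which part of Irgm1 is deleted, how the allele was made and the C57BL/6 substrain are not given in the sources used here. In salivary gland age and genotype cannot be told apart, and in the other organs 2 of 3 Irgm1-/- mice were male while no wild type mouse was.

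Thg1l encodes the tRNA-histidine guanylyltransferase, which adds a guanine to the 5′ end of tRNA-His so that histidyl-tRNA synthetase can charge it, and the protein has also been linked to mitochondrial fusion through the mitofusins. Pttg1 encodes securin, which holds the protease separase inactive until the anaphase-promoting complex marks securin for destruction, whereupon sister chromatids separate; it is high in dividing cells such as those of intestinal crypts. Irgm1 belongs to the immunity-related GTPases, proteins made in response to interferon that regulate autophagy and help cells resist intracellular microbes.

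The probes are shown because each value below is the brightness of these oligonucleotides, and Thg1l has no other probe on the array to set beside it. The Thg1l probe has 60 bases and is printed whole, and the first 30 of the 60 bases of each Pttg1 probe are given, with no capitals in any of them. Of the Pttg1 probes, the one with the higher mean over the 20 arrays is called the brighter probe and the other the dimmer probe.
Thg1l probe: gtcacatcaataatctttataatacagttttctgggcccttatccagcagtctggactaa
Pttg1 brighter probe: ccgcctgtttgttacgatgcagatatttaa
Pttg1 dimmer probe: tcatgggaatctggtaagggagtccgttca
Their GC contents were 38.3%, 35% and 48.3%, in that order, and 0 other probes of the array shared a run of 20 bases with any of them.

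The promoters are shown because Thg1l, Pttg1 and Irgm1 lie in 1 region but their RNA levels differed in different ways. The sequences are those of RefSeq on GRCm38.p6, minus strand, from windows of 250 bases before to 50 bases after the start of each gene, of which the 250 bases before the start are printed. The motifs reported here, each searched on both strands of the whole windows, are GAAA followed by any 2 bases and a further GAAA, the core of the interferon-stimulated response element, TTTGAA, the cell cycle genes homology region, and CCAAT, the CCAAT box. Capitals mark the matches. The Thg1l window is chr11:45955454-45955753, the Pttg1 window chr11:43425932-43426231 and the Irgm1 window chr11:48871371-48871670.
Thg1l promoter: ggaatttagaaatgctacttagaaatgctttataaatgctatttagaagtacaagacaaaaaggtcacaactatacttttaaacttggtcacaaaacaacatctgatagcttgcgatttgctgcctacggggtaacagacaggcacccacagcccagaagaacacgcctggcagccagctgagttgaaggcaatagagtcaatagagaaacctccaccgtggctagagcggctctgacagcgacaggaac
Pttg1 promoter: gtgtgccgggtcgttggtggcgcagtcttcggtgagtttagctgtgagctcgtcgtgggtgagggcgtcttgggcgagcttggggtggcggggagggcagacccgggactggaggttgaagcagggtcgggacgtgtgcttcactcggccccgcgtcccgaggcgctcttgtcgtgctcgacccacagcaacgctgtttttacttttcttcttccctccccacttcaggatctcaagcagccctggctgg
Irgm1 promoter: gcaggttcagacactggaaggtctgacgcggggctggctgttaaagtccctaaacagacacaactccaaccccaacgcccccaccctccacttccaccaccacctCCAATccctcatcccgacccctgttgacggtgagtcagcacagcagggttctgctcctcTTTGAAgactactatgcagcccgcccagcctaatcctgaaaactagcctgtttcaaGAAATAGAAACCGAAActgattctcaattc
Irgm1 had 2 matches to the interferon-stimulated response element core, which overlap each other, 1 to TTTGAA and 1 to CCAAT. The Pttg1 window and this Thg1l window held 0 matches to these 3 motifs. RefSeq lists another start of Thg1l, whose window is chr11:45955139-45955438 on the same strand and begins after the first start in the direction of transcription; of the 3 motifs it held CCAAT alone, with 2 matches, and it is not printed. Of 32851 such windows of the genome, 3.44% held the interferon-stimulated response element core, 17.9% TTTGAA and 37.4% CCAAT. A match describes letters only, and a motif not found says only that these letters are not in this window.

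The arrays were single-colour and differed in brightness. The 75th percentile of intensity over all probes ran from 130.2 to 1022 in salivary gland, from 2322 to 4690 in small intestine and from 922 to 2137 in macrophages, and 25.2% to 48.7%, 52.6% to 62.1% and 57.0% to 74.2% of probes were well above background, the scanner software's flag for a signal above its local background. Levels below are log2 intensity minus the array's 75th percentile, so 0 is the brightness of that percentile and a step of 1 is a factor of 2; for salivary gland it was that of the probes well above background on all 8 arrays, so levels compare arrays of 1 tissue only. All 9 salivary acinar markers were well above background on every salivary gland array, all 9 enterocyte markers on every small intestine array, and 8 to 12 of 12 macrophage markers on the macrophage arrays. The macrophage arrays also had 4 of 4 epithelial markers and 5 to 7 of 9 enterocyte markers well above background. Each array is labelled with 1 mouse.

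Irgm1 was read first as a check of the labels, and it was higher, not lower, in the arrays labelled Irgm1-/-. In salivary gland its brighter probe stood at 0.44, -0.05, -0.80 and -0.22 in Irgm1-/- replicates 1 to 4 and at -2.86, -2.90, -2.68 and -2.76 in the wild type. The groups did not overlap, and the log2 difference was 2.64 (SE 0.23; limma, adjusted p = 0.000432). In small intestine the levels were 2.16, 2.09 and 2.24 against 0.96, 1.10 and 0.94, a difference of 1.16 (SE 0.13; limma, adjusted p = 0.0396). That call was lost when slide was added to the fit (adjusted p = 0.0657), with the labels' mouse number added as a replicate block (adjusted p = 0.187) and without any 1 of 5 of the 6 arrays (adjusted p of 0.131 to 0.327; 0.0408 without wild type replicate 1). It was also lost with arrays scaled to the median (adjusted p = 0.232), with normexp background correction (0.0853) and with no filter on dim probes (0.0787). In macrophages the levels were 0.50, 0.95 and 0.47 against -0.69, 0.24 and -0.26, and the difference of 0.88 (SE 0.31) missed the threshold (limma, adjusted p = 0.270), while it passed with the replicate block (adjusted p = 0.0472). The other Irgm1 probe differed by 2.26, 1.18 and 1.16. Whether either probe lies outside the deleted part is not given, so the reading does not check the deletion, and directions below refer to the arrays as labelled.

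Thg1l gave its widest genotype difference in small intestine. Its probe stood at -0.77, -0.64 and -0.58 in Irgm1-/- replicates 1 to 3 and at -6.48, -6.46 and -6.60 in wild type replicates 1 to 3. All Irgm1-/- arrays were high and all wild type arrays low, with a gap between the groups many times the spread within either at this scaling. The wild type spread is that of signal not well above background. Means were -0.66 (SD 0.09, n = 3) and -6.51 (SD 0.08, n = 3), a log2 difference of 5.85 (SE 0.13). The probe was well above background on 3 of 3 Irgm1-/- arrays and on 0 of 3 wild type arrays, so the wild type has only a bound. Against the lowest signal called well above background on each wild type array, Thg1l was at least 18.1-fold higher in Irgm1-/-. This bound holds for the scanner software's background correction, and the difference with normexp, given below, is smaller than it.

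The raw brightness shows the same order in small intestine. Before scaling between arrays the Thg1l spot read 2757, 2484 and 3026 in Irgm1-/- and 26.0, 36.5 and 28.5 in the wild type. The arrays themselves were brighter in Irgm1-/-, with 75th percentiles of 4690, 3868 and 4534 against 2322, 3204 and 2763. Thg1l lay above 69.0% to 70.7% of the probes of its array in Irgm1-/- and above 19.3% to 32.6% in the wild type. With normexp background correction, which models the background in place of the scanner software's correction, the levels were -0.88, -0.91 and -0.81 against -2.69, -4.90 and -4.50, a difference of 3.16. The groups stayed apart, but the gap between them was smaller than the spread of the wild type arrays. Within the slide that held replicate 1 of each genotype the difference was 5.71, and within the slide of replicates 2 and 3 it was 5.92. The single female Irgm1-/- mouse differed from the 3 wild type females by 5.93.

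In colonic macrophages Thg1l was also higher in Irgm1-/-, by less and near the limit of detection. The levels were -2.69, -3.03 and -2.37 in Irgm1-/- and -4.91, -4.19 and -4.62 in the wild type. Every Irgm1-/- array was above every wild type array. Means were -2.70 (SD 0.33, n = 3) and -4.57 (SD 0.36, n = 3), a log2 difference of 1.88 (SE 0.30). The probe was well above background on 3 of 3 and 0 of 3 arrays, and the bound was at least 2.18-fold higher in Irgm1-/-. The scanner intensities were 228, 182 and 358 against 30.7, 90.1 and 87.2, and the groups did not overlap there either. With normexp the levels were -2.16, -2.51 and -2.71 against -2.92, -2.58 and -3.51, a difference of 0.54 with overlapping groups. That difference is smaller than the bound, which holds for the scanner software's background correction. Of the 6 pancreatic markers, enzymes of digestion that are not made by macrophages, 5 fell in Irgm1-/- macrophage samples (limma), where 0.206% of all genes fell, and among them Cela2a fell by 11.3 on the log2 scale (limma, adjusted p = 0.000132). Their summed level, relative to the 75th percentile on the linear scale, was 7.18 to 7.88 on the Irgm1-/- arrays and 159.2 to 708 on the wild type arrays, with 3 to 5 of 6 markers well above background in Irgm1-/- and 6 of 6 in the wild type, and their part in the Thg1l difference was not tested. In small intestine, where the Thg1l difference was larger, 2 of 6 pancreatic markers were well above background on every array of both genotypes, with summed levels of 0.325 to 0.384 and 0.386 to 0.474.

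Other markers moved with genotype in the macrophage samples as well. Of the 12 macrophage markers 11 were tested, and 9 had values below 0, with a median difference of -1.23; 0 passed (limma; 4 at an unadjusted p under 0.05), and with the replicate block 7 passed, all lower in Irgm1-/-. Their summed level was 10.2 to 15.6 on the Irgm1-/- arrays, with 8 to 11 of 12 well above background, and 12.4 to 32.6 on the wild type arrays, with 10 to 12. All 4 epithelial markers had values above 0, with a median of 0.58, and summed levels of 48.8 to 102.7 against 39.1 to 83.7; 0 passed (limma; 1 at an unadjusted p under 0.05) and 1 passed with the block. The 5 T cell markers on the array were well above background on every macrophage array, and all 5 had values above 0, with a median of 0.41. Of 5 B cell markers 4 to 5 were well above background, and 4 had values above 0, with a median of 0.98. Of each set 0 passed (limma). With the block 0 T cell markers and 1 B cell marker passed, where 7.69% of all genes did. The part of all these markers in the macrophage values of Thg1l and Pttg1 was not tested.

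In salivary gland Thg1l did not show the order of the other organs. The levels were -2.42, -2.04, -1.64 and -1.54 in Irgm1-/- replicates 1 to 4 and -1.76, -1.49, -1.31 and -0.95 in wild type replicates 1 to 4. The probe was well above background on all 8 arrays. The groups overlapped, with the lower Irgm1-/- arrays below every wild type array and the upper ones within the wild type range. Means were -1.91 (SD 0.40, n = 4) and -1.38 (SD 0.34, n = 4), a log2 difference of -0.53 (SE 0.23). Within slide 1 the difference was -0.60 and within slide 2 it was -0.46.

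Pttg1 separated the genotypes in salivary gland, where the brighter probe was lower in Irgm1-/-. Its levels were -2.46, -3.55, -4.20 and -3.72 in Irgm1-/- replicates 1 to 4 and -1.80, -1.86, -1.45 and -1.88 in the wild type. The wild type arrays lay close together and above every Irgm1-/- array, and the Irgm1-/- arrays were spread, with replicate 1 the nearest to the wild type. That array also stood apart in other measures: its 75th percentile of intensity was 1022 against 154.2 to 364 on the other Irgm1-/- arrays, its summed acinar marker level 101.2 against 406 to 640, and its summed level of dividing-cell markers 0.916 against 0.221 to 0.415. Without it the Pttg1 difference was -2.08 and the Thg1l difference -0.36. Means were -3.48 (SD 0.74, n = 4) and -1.75 (SD 0.20, n = 4), a log2 difference of -1.73 (SE 0.33), so that wild type salivary gland had 3.33 times the level of Irgm1-/-. The probe was well above background on 3 of 4 Irgm1-/- arrays, replicate 4 being the exception, and on 4 of 4 wild type arrays. Within slide 1, which held replicates 1 and 2, the difference was -1.18, and within slide 2 it was -2.29. The dimmer probe was well above background on 0 of 8 salivary gland arrays and so gives no fold there.

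In small intestine, whose crypts divide constantly, Pttg1 was bright in both genotypes. The brighter probe stood at 2.06, 2.34 and 2.10 in Irgm1-/- and 2.31, 2.43 and 2.17 in the wild type, and the groups overlapped. The difference was -0.14 (SE 0.15). The dimmer probe, well above background on 6 of 6 arrays, read -2.77, -2.24 and -2.51 against -3.82, -2.49 and -2.61, with a difference of 0.47 (SE 0.37). The probes therefore differed in sign, neither beyond the spread, and wild type replicate 1 alone was low with the dimmer probe. In macrophages the brighter probe stood at 0.29, -0.57 and -0.53 in Irgm1-/- and at -0.14, 0.27 and 0.05 in the wild type. Those groups overlapped too, Irgm1-/- replicate 1 being the highest of all and the other Irgm1-/- arrays the lowest, with a difference of -0.33 (SE 0.31). The dimmer probe was well above background on 0 of 3 Irgm1-/- and 1 of 3 wild type macrophage arrays.

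**Figure D1:**
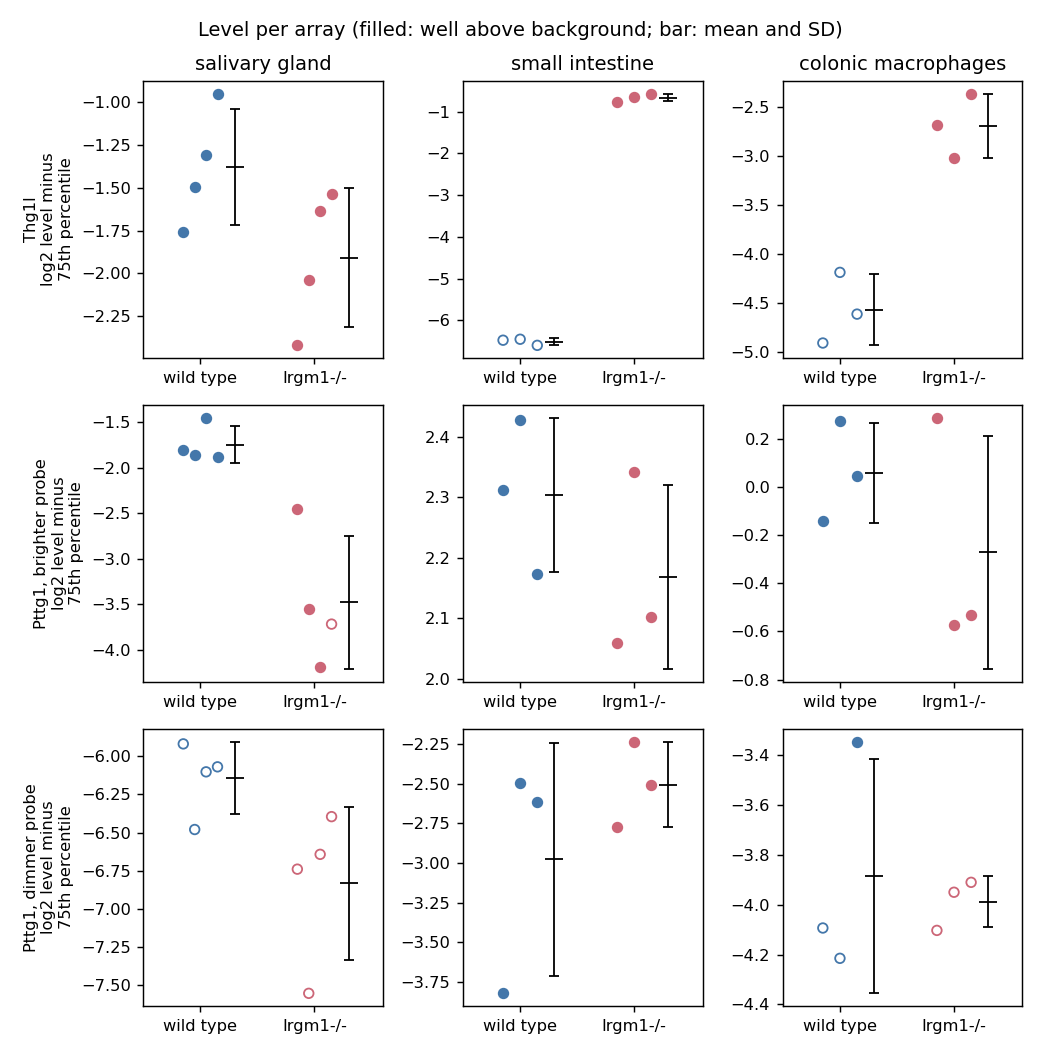
Level of each probe on each of the 20 arrays, as log2 intensity minus the array's 75th percentile, by genotype (columns of panels are tissues, rows are probes; each panel has its own scale; filled points are well above background, open points are not; bars are mean and SD). Thg1l separates the genotypes in small intestine (-0.66 against -6.51) and macrophages (-2.70 against -4.57), with open points in every wild type array there, and Pttg1's brighter probe separates them in salivary gland (-3.48 against -1.75).

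Groups did not overlap for Thg1l, higher in Irgm1-/-, in small intestine and in macrophages, and 5.07% and 7.47% of all genes tested there did not overlap in that direction. For Pttg1, lower in Irgm1-/- in salivary gland, the share of genes was 3.31%. Both genes were chosen for these contrasts, so the separations are a description. Thg1l and the brighter Pttg1 probe were bright enough to be tested in all 3 tissues, but Thg1l passed in small intestine and macrophages through its Irgm1-/- arrays alone.

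The place of a probe among all probes of its array gives an order over tissues without a common scale. For Thg1l it ran from a mean of 88.5% (SD 1.63) in wild type and 85.3% (SD 2.73) in Irgm1-/- salivary gland, through 70.0% (SD 0.943) in Irgm1-/- small intestine and 42.7% (SD 2.33) in Irgm1-/- macrophages, to 24.7% (SD 7.02) and 24.0% (SD 3.13) in wild type small intestine and macrophages. The salivary gland groups overlapped each other, and so did the last pair, whose probes were not well above background. For the brighter Pttg1 probe it was 89.6% in small intestine of both genotypes (SD 0.519 in Irgm1-/- and 0.962 in the wild type), 86.7% (SD 0.942) in wild type and 74.3% (SD 5.09) in Irgm1-/- salivary gland, and 75.7% (SD 2.09) and 71.8% (SD 5.19) in wild type and Irgm1-/- macrophages. Irgm1-/- salivary gland overlapped both macrophage groups. The place also depends on how many probes of a tissue are detected, which differed as given above.

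**Figure D2:**
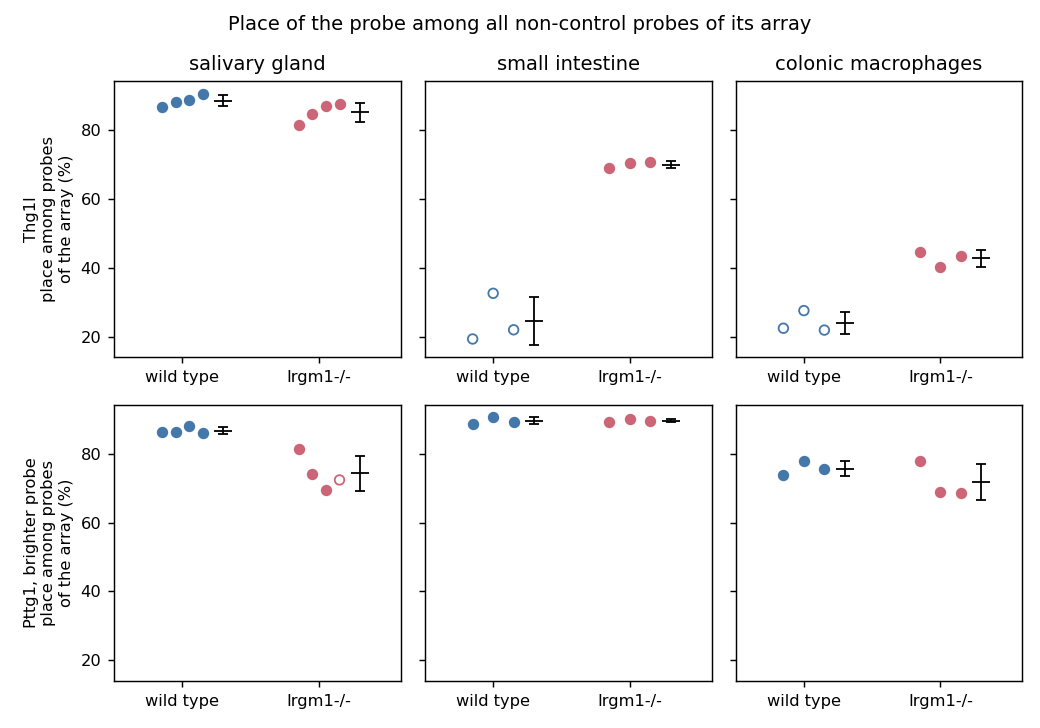
Place of the Thg1l probe and of the brighter Pttg1 probe among all non-control probes of the same array, in percent (0 the dimmest), by tissue and genotype; points are arrays, filled where well above background, and bars are mean and SD. Thg1l lies at 70.0% in Irgm1-/- and at 24.7% in wild type small intestine, and Pttg1 lies at 89.6% in both.

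The same 6 mice gave small intestine and macrophages, so each mouse can be followed over both organs. For Thg1l every Irgm1-/- mouse was above every wild type mouse in both organs: the female of 6 weeks was the highest Irgm1-/- mouse in each (-0.58 and -2.37), and the male of 6 weeks the lowest in each (-0.77 and -3.03). This order among the Irgm1-/- mice depended on the measure. With normexp the female was the lowest in macrophages (-2.71 against -2.16 and -2.51), and the male of 8 weeks the lowest in small intestine (-0.91). By place on the array the male of 8 weeks was the highest in macrophages (44.7% against 43.4% for the female). Among the wild type mice, with Thg1l not well above background, the order differed between organs. For Pttg1 the male Irgm1-/- mouse of 8 weeks had 2.34 in small intestine and 0.29 in macrophages, the highest of its genotype in both. These are single values from shared animals and received no test.

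**Figure D3:**
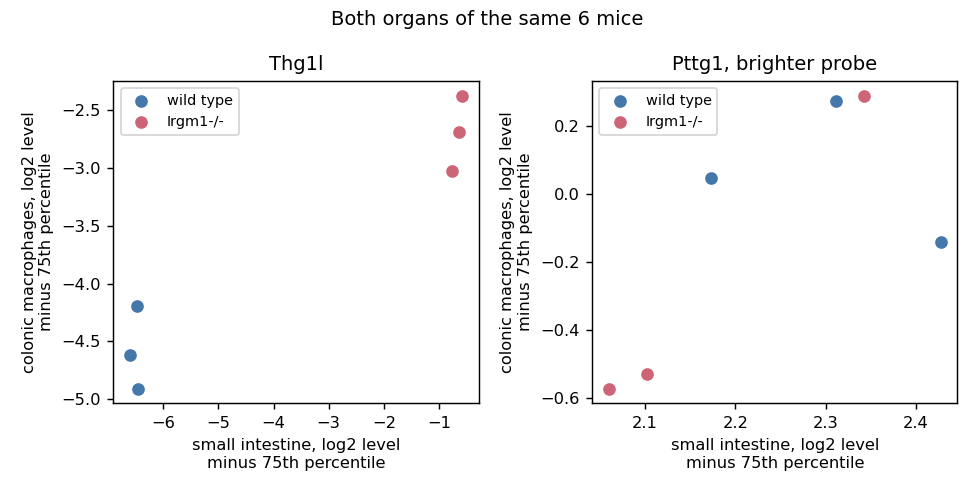
Levels of Thg1l and of the brighter Pttg1 probe in small intestine (horizontal) and colonic macrophages (vertical) of the same 6 mice, both as log2 intensity minus the array's 75th percentile; each point is a mouse, coloured by genotype. The 3 Irgm1-/- mice stand apart from the 3 wild type mice on both axes for Thg1l, and on neither axis for Pttg1.

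Genes lying near the pair were read next. In RefSeq gene order Pttg1 is separated from Thg1l by 13 protein-coding genes and Thg1l from Irgm1 by 19, and with 20 genes on each flank the stretch holds 75 genes. Without Thg1l and Pttg1, 71 of the remaining 73 were on the array. In salivary gland 3 of 21 tested genes rose in Irgm1-/- (limma, adjusted p under 0.05), where 2.85% of all genes passed: Irgm1 and, beyond Irgm1, the interferon-induced GTPase genes Tgtp2 (3.34, SE 0.41; limma, adjusted p = 0.00245) and Ifi47 (3.16, SE 0.37; limma, adjusted p = 0.00199). In small intestine 2 of 43 rose, against 0.188% of all genes, and these were Irgm1 and Tgtp1 (1.63, SE 0.18; limma, adjusted p = 0.0380). Tgtp1 is a near-identical copy of Tgtp2, and whether its probe also reads Tgtp2 was not tested. In salivary gland Tgtp1 differed by 0.56 (limma, adjusted p = 0.344), beside the 3.34 of Tgtp2. Its small intestine call was lost with the replicate block (adjusted p = 0.0873), with normexp (0.51, adjusted p = 0.592) and with the percentile over the other set of probes (adjusted p = 0.0588). The call was also lost with no filter (0.0644), with an intensity trend (0.0733) and without any 1 of 5 of the 6 arrays (adjusted p of 0.123 to 0.224, but 0.0408 without wild type replicate 1). In macrophages 0 of 52 passed (limma; 6 at an unadjusted p under 0.05), where 0.229% of all genes did. With the replicate block 5 passed there, where 7.69% of all genes did: Irgm1, Slit3, C1qtnf2, Ccnjl and Adam19.

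Between Pttg1 and Irgm1 themselves, leaving out Thg1l, 32 genes are listed and 0 passed in any tissue at the settings used for these values. In macrophages C1qtnf2, Ccnjl and Adam19 passed with the block and C1qtnf2 also with normexp. With arrays scaled to the median 1 chromosome 11 gene, not named here, passed in macrophages, lower in Irgm1-/-. In salivary gland 10 of the 32 genes were tested, with differences from -0.32 (Fndc9) to 0.35 (Clint1), and in small intestine 22, from -0.58 (Rnf145) to 0.68 (Pwwp2a). In macrophages 22 were tested, from -2.45 (C1qtnf2, SE 0.53; limma, adjusted p = 0.0959) to 1.22 (Ccnjl), and 4 of them differed by more than 1. Medians were 0.06, 0.00 and 0.18, beside 0.05, -0.09 and 0.09 over all genes tested. The nearest tested genes on either side of Thg1l give its immediate surroundings in small intestine: Ebf1, a B cell transcription factor, differed by 0.33 (SE 0.61), Clint1, which acts in clathrin-coated vesicles, by -0.29 (SE 0.30) and Lsm11, of the histone pre-mRNA processing complex, by 0.25 (SE 0.17). On the Irgm1 side the metalloprotease gene Adam19 differed by 0.31 (SE 0.15) and the actin regulator gene Cyfip2 by 0.00 (SE 0.24), and Fndc9 was too dim to be tested. In macrophages the same genes ran from -1.20 (Adam19, SE 0.36; limma, adjusted p = 0.173) to 0.73 (Clint1, SE 0.38; limma, adjusted p = 0.545).

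Around Pttg1 in salivary gland 2 of the 6 nearest genes were bright enough to test. Ccng1, which encodes cyclin G1, differed by 0.12 (SE 0.13) and C1qtnf2, which encodes a secreted C1q-like protein, by 0.03 (SE 0.21), beside -1.73 for Pttg1. In the other organs Gabrb2 and Atp10b on one side and C1qtnf2 and Ccnjl on the other could be read as well, and Slu7 in small intestine alone. In small intestine they lay between -0.58 (Gabrb2, SE 0.41) and 0.32 (C1qtnf2, SE 0.32). At the settings used for these values 0 of the 12 nearest genes passed the threshold in any tissue (limma). Under the alternatives C1qtnf2 passed in macrophages with normexp, beside the block calls above. Whether the gene that passed there with arrays scaled to the median is among these 12 is not given here.

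**Figure D4:**
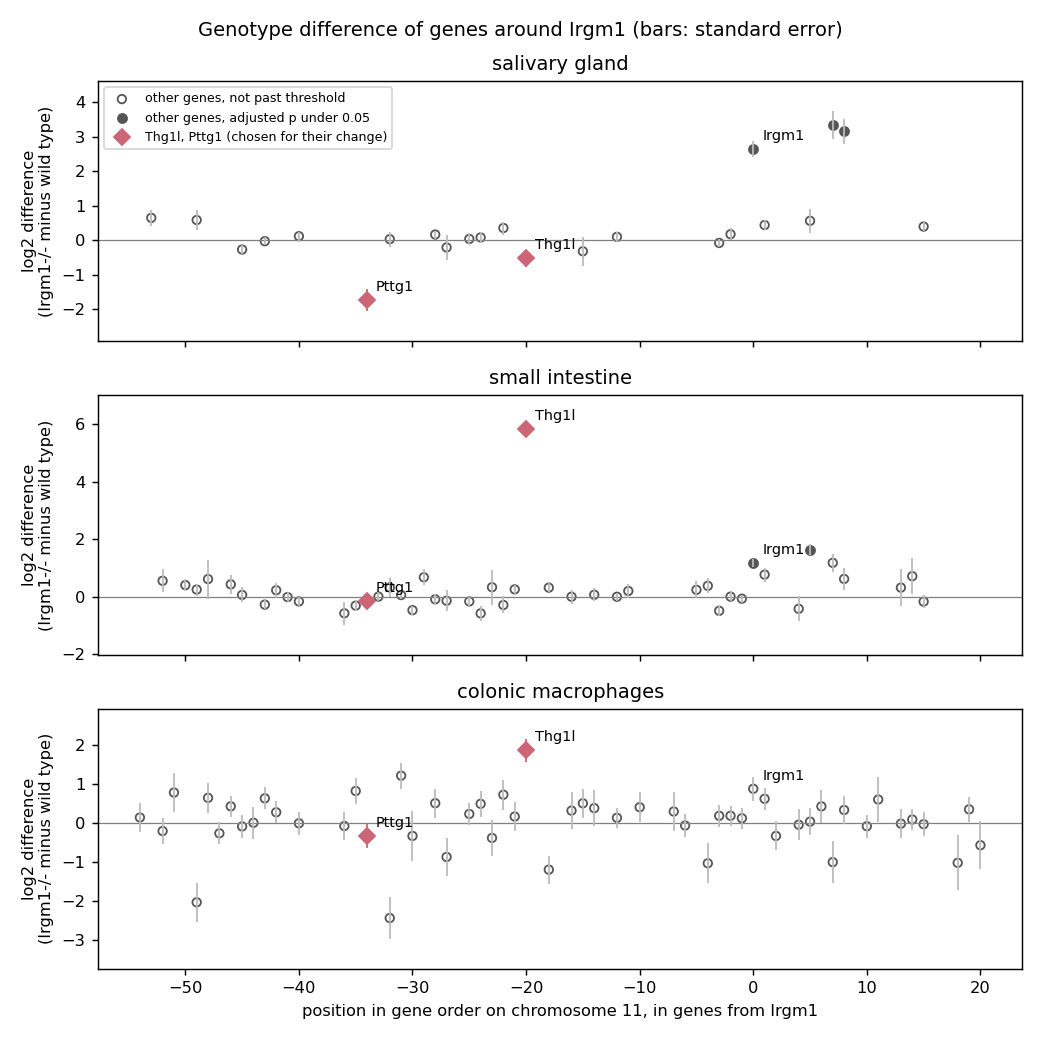
Log2 difference between Irgm1-/- and wild type (vertical, bars are SE) of the tested genes around Irgm1, by gene order on chromosome 11 counted from Irgm1 (horizontal), for each tissue; filled circles passed an adjusted p of 0.05 and diamonds are Thg1l and Pttg1, chosen for their change. Thg1l (5.85) stands far above its neighbours in small intestine and Pttg1 (-1.73) below its own in salivary gland, while the filled circles lie at and beyond Irgm1.

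The genes that work with Thg1l were described through a list of 63 genes of tRNA processing, histidine charging and mitochondrial fusion, all on the array. Of 43, 63 and 55 tested in salivary gland, small intestine and macrophages, 0 passed in each tissue (limma; 5, 5 and 2 at an unadjusted p under 0.05). Over all genes tested 2.85%, 0.188% and 0.229% passed, so that for a list of this size few calls or none would match those shares. At an unadjusted p under 0.05 the shares of all genes were 22.3%, 7.11% and 11.9%. In salivary gland and macrophages these shares were larger than those of the list. Medians were 0.04, -0.13 and 0.21, beside 0.05, -0.09 and 0.09 over all genes. Hars, the histidyl-tRNA synthetase that charges the tRNA Thg1l extends, differed by 0.00 (SE 0.15), -0.01 (SE 0.15) and -0.11 (SE 0.23), and its mitochondrial counterpart Hars2 by -0.08 (SE 0.16), -0.13 (SE 0.15) and 0.41 (SE 0.29). The mitofusin genes Mfn1 (0.15, -0.20 and 0.38) and Mfn2 (0.17, -0.24 and 0.23) stayed in the same range. Trmt10c, a tRNA methyltransferase and part of mitochondrial RNase P, was tested in small intestine alone and differed by 0.01 (SE 0.18). The widest values were those of Tsen15, of the tRNA splicing endonuclease (0.47), and Qtrt1, of the queuine transferase (-0.40), in salivary gland, Alkbh8 (0.72) and Trdmt1 (0.64), both tRNA methyltransferases, in small intestine, and Cdk5rap1 (0.79) and Nsun6 (0.69), both tRNA-modifying enzymes, in macrophages. All of them lay below the 5.85 of Thg1l in small intestine, but Thg1l was chosen for its change, so this is a description. The wild type level of Thg1l there is only a bound.

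The genes that work with Pttg1 were described through a list of 61 genes of securin, separase, the anaphase-promoting complex, cohesin and mitosis, all on the array. Of 32, 59 and 53 tested, 0 passed in each tissue (limma; 2, 3 and 11 at an unadjusted p under 0.05), with medians of 0.16, -0.11 and 0.31. These counts stand beside the same shares of all genes, 2.85%, 0.188% and 0.229% adjusted and 22.3%, 7.11% and 11.9% unadjusted. In salivary gland, where Pttg1 was lower, Cdc20 (0.56, SE 0.46) and Ube2c (0.63, SE 0.48), an activator and the ubiquitin-conjugating enzyme of the complex, had values above 0, Fzr1, the other activator, had 0.09 (SE 0.14) and Pttg1ip, which encodes a securin-binding protein, had 0.41 (SE 0.15). Espl1, which encodes separase, was not tested there and differed by 0.11 (SE 0.17) in small intestine and 0.24 (SE 0.26) in macrophages. The widest values were those of the thymidylate synthase gene Tyms (-0.81) and the cyclin gene Ccna2 (0.81) in salivary gland, of the cohesin loader gene Nipbl (0.85) and Cdc27 of the complex (-0.67) in small intestine, and of the mitotic kinase gene Cdk1 (1.28) and the survivin gene Birc5 (1.24) in macrophages. With the replicate block 4 of 53 passed in macrophages, beside 7.69% of all genes, namely Cdca8, Ccnb1, Birc5 and Cdc20, all with differences above 0.

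Markers of dividing cells, some of them members of that list, are given beside Pttg1. In salivary gland 3 of 10 were tested, with a median difference of 0.76 and 0 passing, and their summed level was 0.221 to 0.916 on Irgm1-/- arrays and 0.171 to 0.456 on wild type arrays, so the groups overlapped. In small intestine 9 were tested, with a median of -0.04, and in macrophages 6, with a median of 1.02 and summed levels of 4.88 to 10.8 in Irgm1-/- and 2.60 to 4.68 in the wild type. Macrophage markers moved with genotype in salivary gland: 4 of 9 tested rose in Irgm1-/- (limma), where 2.61% of all genes rose, with 8 to 11 of 12 well above background and a summed level of 9.84 to 19.6, against 7 to 9 of 12 and 5.81 to 11.8 in the wild type. Without single arrays 0 to 4 macrophage markers passed, 4 of them without Irgm1-/- replicate 1. Of the 9 acinar markers 1 fell (limma), where 0.237% of all genes fell, with a median difference of -0.59 and summed levels of 101.2 to 640 in Irgm1-/- and 326 to 793 in the wild type. That call was lost without each array in turn, except wild type replicate 4. It was also lost with arrays scaled to the median, quantile normalization, normexp, no filter, detection on every array or an intensity trend. The part of these cell types in the Pttg1 and Thg1l values was not tested. In whole organs fewer cells of a type and less RNA per cell cannot be told apart.

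The interferon-induced genes had their widest differences in salivary gland, the organ in which Pttg1 also differed most but in the other direction. Thg1l differed most in small intestine. Of a list of 31, 22 of the 23 tested rose in salivary gland, 9 of 31 in small intestine and 1 of 29 in macrophages (limma), where 2.61%, 0.188% and 0.0235% of all genes tested rose. The salivary gland count was 22 without each array in turn. In small intestine, where the mouse number was read as a pairing, 0 of 31 passed with the replicate block (limma, with 24 at an unadjusted p under 0.05). That block called 0.00649% of all genes. In the same organ 1 passed with normexp, and 1 to 14 passed without single arrays. In macrophages 12 of 29 passed with the block, beside 7.69% of all genes. Median log2 differences of the list were 3.37, 1.36 and 0.77, beside 0.05, -0.09 and 0.09 over all genes. Oas2, an antiviral synthetase, rose by 5.08, 3.40 and 2.59 (limma, adjusted p = 8.08e-05, 0.00875 and 0.0464). Usp18, which removes the ubiquitin-like protein ISG15, rose by 3.37 and 2.68 in the first and second (limma, adjusted p = 1.65e-05 and 0.0160) and stood at 2.54 in macrophages (limma, adjusted p = 0.0922). Isg15 itself rose by 3.45 and 1.62 and Ifit3, an antiviral effector, by 4.71 and 2.27 (limma, adjusted p of 0.000342 and 0.0439, and of 0.000146 and 0.0148), with 1.02 and 1.75 in macrophages. With the block the small intestine calls of Oas2, Usp18, Isg15 and Ifit3 were lost (adjusted p = 0.0590, 0.0879, 0.185 and 0.0800), and all of them passed in macrophages (0.0107, 0.0127, 0.0351 and 0.0107). Irf7, the interferon regulatory factor, rose by 4.12 and the GTPase gene Igtp by 3.66 in salivary gland (limma, adjusted p = 0.000378 and 0.000568); their values elsewhere were 1.84 and 1.74, and 1.36 and 1.11. Where these genes differed most, in salivary gland, Thg1l had -0.53 and Pttg1 -1.73, and where they differed less, in small intestine, Thg1l had 5.85 and Pttg1 -0.14. Thg1l and Pttg1 were chosen for not following the interferon-induced genes, so this contrast is a description.

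**Figure D5:**
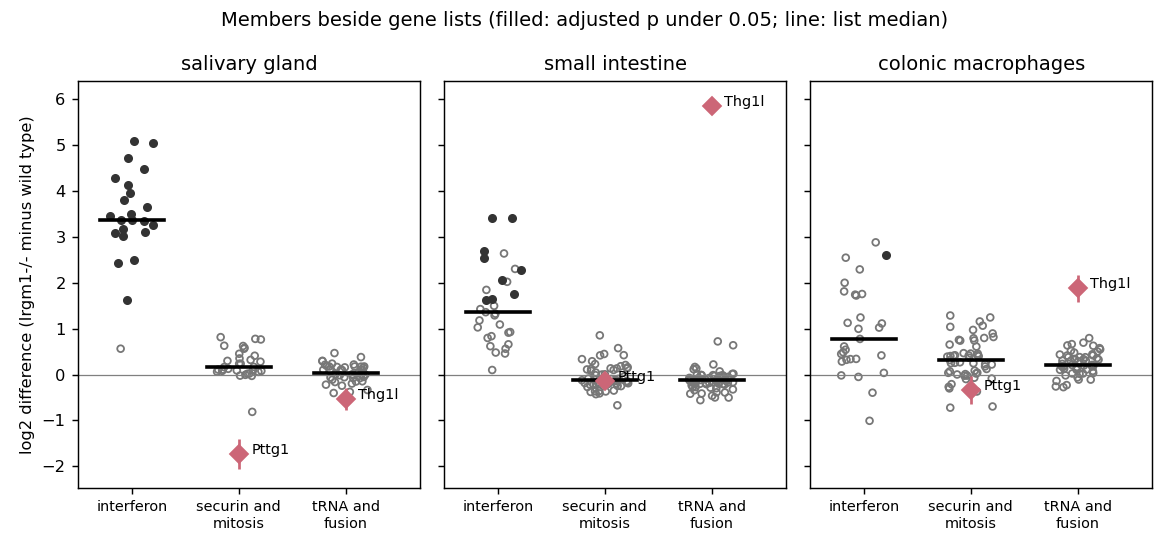
Log2 difference between Irgm1-/- and wild type (vertical) of every tested member of the interferon list, the securin and mitosis list and the tRNA and fusion list, with Thg1l and Pttg1 as diamonds (bars are SE), by tissue; filled circles passed an adjusted p of 0.05 and lines are list medians. Interferon medians decrease from 3.37 over 1.36 to 0.77, and the diamonds lie outside the range of their own lists for Pttg1 in salivary gland and for Thg1l in all 3 tissues. Thg1l and Pttg1 were chosen for their change.

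The genes whose pattern was most like that of either gene were found by Pearson r over the 20 arrays, after each tissue's mean had been removed. The 13779 genes compared had a probe well above background on at least 10 of the 20 arrays. Arrays share slides, mice and the genotype contrast, so the values are a description. For Thg1l the highest were Asb2, a ubiquitin ligase adaptor (r = 0.87), Herc6, an interferon-induced ISG15 ligase (0.85), the nuclear body gene Sp100 (0.83), Hsh2d (0.79) and the centriole gene Sass6 (0.76). The lowest were Fmc1 (-0.74), Med27 (-0.73), Apba3 (-0.73), Rnf187 (-0.72) and Sbsn (-0.72). Among the highest, Herc6 and Hsh2d were too dim to be tested in salivary gland. Asb2 stood at 1.06, 2.56 and 0.97 in Irgm1-/- small intestine and at -2.67, -1.12 and -1.48 in the wild type, apart as Thg1l was but detected in every array. Its difference was 3.29 (SE 0.55) in small intestine, -0.09 (SE 0.19) in salivary gland and 0.78 (SE 0.49) in macrophages. The r of Thg1l with Irgm1 was 0.29, with Isg15 0.31, with Ifit3 0.32, with Usp18 0.52 and with Pttg1 -0.04. Counted from the highest of the 13779 genes, these ranked 1022, 888, 770, 78 and 6230.

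For Pttg1 the highest r were those of Nnt (0.81), Trim16 (0.77), Rnase2a (0.73), Prr12 (0.65) and Cplane2 (0.65). The lowest were those of Apol9b (-0.80), Apol9a (-0.79), H2-K2 (-0.79), Oas1f (-0.78) and H2-Q7 (-0.75), among them antiviral and antigen presentation genes that were higher in Irgm1-/- salivary gland by 2.22 to 5.38. Of the genes with the highest r, Trim16, Rnase2a, Prr12 and Cplane2 were too dim to be tested in salivary gland, where Pttg1 differed most. Their likeness to Pttg1 there rests on dim signal. The r of Pttg1 with Irgm1 was -0.68, with Isg15 -0.69, with Ifit3 -0.71 and with Usp18 -0.63. Counted from the highest of the 13779 genes, these ranked 13741, 13742, 13758 and 13699, near the lowest end. Nnt encodes the mitochondrial nicotinamide nucleotide transhydrogenase, and as background the C57BL/6J substrain carries a deletion in it that C57BL/6N lacks. It stood at -2.97, -3.20, -3.04 and -3.21 in Irgm1-/- salivary gland and at -1.43, -1.26, -1.45 and -1.64 in the wild type. Those groups were further apart than the spread within either, with a difference of -1.66 (SE 0.12), and in small intestine and macrophages they overlapped, with -0.19 (SE 0.19) and 0.32 (SE 0.32). Nnt is thus lower in the same organ as Pttg1, and its part in the Pttg1 difference was not tested.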

How the data were processed

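Total RNA was labelled with Cy5 and hybridized to 20 single-colour Agilent arrays of design 026655, per the labels and the file headers. The deposited scanner files, made with Agilent Feature Extraction 11.5.1.1 per the file headers, hold intensity values that are background-subtracted within the array and not normalized between arrays, and flags per spot (well above background, outlier, saturated), which were used here. The authors' series table also holds intensity values of unstated normalization and served as an alternative only. In it 9 of 20 columns, all of small intestine or macrophages, matched by rank the scanner file of another mouse of the same tissue and genotype (the lowest Spearman correlation with the labelled mouse's own file was 0.933), and 2 of these carry another labelled sex, whereas Ddx3y flags of the scanner files matched the labelled sex on 20 of 20 arrays. Group means are the same under either assignment.

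Outlier spots (0.434% of 43020 per array) were dropped; 0 spots were saturated. The log2 values of a probe's spots were averaged, and the 75th percentile of the array was subtracted. That percentile came from all probes, except in salivary gland, whose arrays each detected under 50% of probes and where it came from probes detected on all 8. RefSeq tables of GRCm38.p6 named 27508 probes by accession and 404 by synonym, 5345 kept the file's gene name and 6172 without one were left out. Each gene was represented by its brightest probe, tested in a tissue where its flags were positive on 4 or more salivary gland arrays or 3 or more of the other organs. Genotypes were compared per tissue with limma 3.58.1 in R 4.3.3 (with version 1.17.8 of data.table), with Benjamini-Hochberg adjustment over all genes and a threshold of 0.05, and the scripts were tested on simulated data. SEs come from the same fits. For a group with no array well above background, "at least" folds use the lowest signal called well above background on each array. They hold for the scanner software's background correction and not for normexp.

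Thg1l, Pttg1 and the gene lists were chosen with earlier results of these data known, so Thg1l and Pttg1 received no test. Named were both genes, Irgm1, region genes past the threshold, the 3 nearest tested genes on each side, up to 4 members of a list past the threshold or 2 with the widest values, fixed interferon and partner genes (1 of them, and 1 promoter motif that was also searched, are not reported here), and the 5 genes of highest and lowest r with a gene symbol. Alternatives were other scalings, normexp (offset 50), other filters, slide and replicate blocks, leaving out arrays, and other probes; those of the interferon list were chosen after seeing the data. Same-numbered mice share a slide. After group means were removed, mice of 1 number correlated by 0.20, 0.25 and 0.39 (small intestine) and 0.50, 0.29 and 0.66 (macrophages). All were above 0, so the number was read as a pairing there. Same-numbered mice of these organs also share their age, and the values do not show what they have in common. The salivary gland values were 0.20, -0.11, -0.52 and 0.43, of both signs, so the number was not read as a pairing there. The number of arrays limits the precision of every value.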

Additional observations from a re-analysis of the deposited data

How the results depend on the processing

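The direction of the Thg1l and Pttg1 differences in salivary gland and macrophages, and of Thg1l in small intestine, was the same under all 16 to 19 alternatives run for each, and that of Pttg1 in small intestine was below 0 in 14 of 18. The slide and replicate blocks are counted among them, but both are balanced over genotype and could not change a difference. For Pttg1 the counts also hold the dimmer probe and the mean of both probes, although the dimmer probe was mostly not well above background outside small intestine. Thg1l in small intestine was 5.96 with the percentile over the other set of probes, 5.74 scaled to the median, 6.04 with quantile normalization, 6.08 in the authors' series table, 5.71 within slide 1 and 3.16 with normexp; in macrophages it was 0.54 with normexp and 2.24 within slide 2. Pttg1 in salivary gland was -1.18 within slide 1, -2.29 within slide 2 and -0.69 with the dimmer probe, which is not detected there; in small intestine it was 0.47 with the dimmer probe and 0.17 with the mean of both. Leaving out each array gave -0.66 to -0.36, 5.80 to 5.90 and 1.71 to 2.07 for Thg1l in salivary gland, small intestine and macrophages, and -2.08 to -1.50, -0.22 to -0.07 and -0.61 to -0.18 for Pttg1. It gave 137 to 371, 2 to 49 and 20 to 42 genes called, against 277, 29 and 39; in salivary gland each of Irgm1-/- replicate 2 (142), wild type replicates 1 (159), 2 (137) and 4 (145), in macrophages wild type replicate 2 (20), and in small intestine every array moved the count by over 1.5 times. Genes called in salivary gland numbered 150 scaled to the median, 643 with the slide as a block, 139 with no filter and 118 when detected on every array; in small intestine 3 with normexp; in macrophages 210 scaled to the median, 78 with quantile normalization, 326 with normexp, 64 with an intensity trend and 900 in a fit of all 20 arrays. Of the chromosome 11 genes, 0 passed with normexp and 1 with the slide as a block in small intestine, and 1 (C1qtnf2) with normexp in macrophages. Scaled to the median, 1 passed in small intestine and 1, lower in Irgm1-/-, in macrophages. Of the interferon list, whose alternatives were chosen after seeing the data, 22, 9 and 1 genes passed in salivary gland, small intestine and macrophages; this was 11 in salivary gland when detected on every array (11 tested), 1 in small intestine with normexp, and in macrophages 0 with the percentile over the other set of probes or no filter, 4 scaled to the median, 3 with quantile normalization, 5 with normexp, and 2 with the slide as a block, when detected on every array or with an intensity trend. Without single arrays it was 22 in salivary gland, 1 to 14 in small intestine (14 when wild type replicate 1 was left out, 4 for wild type replicate 2, 2 for wild type replicate 3, and 1 for each Irgm1-/- array), while macrophages gave 0 to 1. Tgtp1 in macrophages, 0.04, was -0.032 with normexp and ran from -0.22 to 0.33 without single arrays. The cause of these changes was not tested.

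With the replicate block, by the pairing of mouse numbers, 688, 1 and 1309 genes passed in salivary gland, small intestine and macrophages. It called 1 gene of the tRNA and fusion list (Tsen15) and 1 of the mitosis list (Tyms) in salivary gland, where the number was not read as a pairing. The block called 4 of the mitosis list and 5 chromosome 11 genes in macrophages, and 0 chromosome 11 genes in small intestine. Of the interferon list it called 22, 0 and 12. The differences of Thg1l and Pttg1 are the same with and without it. Dim signal limits Thg1l in wild type small intestine and macrophages, where 0 of 3 arrays each were well above background, and the dimmer Pttg1 probe in salivary gland.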
